A study of Mus musculus with 6 samples.

Results

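The genes described here copy DNA: 51 genes for the licensing of replication origins, the replicative helicase, the DNA polymerases, the sliding clamp, the assembly of chromatin behind the fork and the supply of deoxynucleotides. They were chosen by name, and every probe whose platform annotation carries 1 of these symbols was taken. All 51 had a probe, 98 probes in all of the 45281 on the array, and 48 genes had at least 1 probe bright enough to be tested, among 9711 genes tested. The other 3 were Gmnn, Pola1 and Pole2. Transcripts were measured on Illumina bead arrays in mouse embryonic stem cells. The shChd8 group (3 arrays) carried a pHYPER plasmid for a short hairpin RNA against the chromatin remodeller Chd8, and the control group (3 arrays) is labelled only as control, and the sources used here do not give the content of its vector. Cells of both groups were grown in medium with serum and leukemia inhibitory factor on a layer of mitomycin C-treated embryonic fibroblasts, were electroporated, and were then exposed to puromycin for 48 h, beginning 24 h later, ahead of RNA extraction. The labels name 1 hairpin, no rescue, and neither a strain nor an age. They do not say whether the arrays of a group came from separate cultures, so each p-value measures the spread between these arrays, which may be technical.

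Before S phase, the origin recognition complex, Cdc6 and Cdt1 load the ring of Mcm2, Mcm3, Mcm4, Mcm5, Mcm6 and Mcm7 onto DNA. The cyclin E and Cdk2 kinase, activated by the phosphatase Cdc25a, then helps to turn loaded rings into moving helicases with Cdc45 and the GINS complex. Polymerase alpha with primase starts each strand, polymerases delta and epsilon extend it on the Pcna clamp, and ribonucleotide reductase, thymidylate synthase and the salvage kinases provide the building blocks. Embryonic stem cells are known for a short G1 phase and a large share of cells in S phase. Many of these genes are textbook targets of E2F transcription factors.

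The arrays showed the hairpin's target and the cell type of the labels. On its detected probe Chd8 had a normalized log2 intensity of 8.71, 8.64 and 8.36 on the shChd8 arrays, against 9.90, 9.97 and 10.02 on the control arrays, which is 38.1% of the control level (limma adjusted p = 0.00907). That call was lost without shChd8 replicate 1 (adjusted p = 0.0534), in the unmoderated test (0.061) and with feeder markers as a covariate (0.24). Another Chd8 probe was detected on no array. All 14 stem cell markers were measured, with Dppa5a, Esrrb and Dppa4 the brightest, and their summed level ran from 79549 to 90772 on the shChd8 arrays and from 84405 to 87195 on the control arrays. Between 16482 and 17440 probes were detected per array at a detection p under 0.01. All arrays lay on 1 slide, and the effects of array position and of group cannot be told apart.

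Of the replication genes, Tk1, the salvage kinase for thymidine, was the single one that passed the test. Of the 48 measured members 1 fell and 0 rose at a limma adjusted p under 0.05, each gene standing by its brightest tested probe, beside 2.61% of all genes lower and 1.70% higher. Counted by any probe the result was again 1 lower and 0 higher, beside 3.05% and 2.12% of all genes. Without adjustment, 6 members were lower and 2 higher at p under 0.05, which is 12.5% and 4.17% of them, beside 14.0% and 13.4% of all genes. The share of members called or near a call was thus no higher than over all genes.

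The median log2 change of the 48 members lay slightly below 0 in this setting, though not in every one. The log2 change of shChd8 over control was below 0 for 36 of them (75.0%), beside 51.8% of all genes, and their median was -0.15, beside -0.02 over all genes. Their median absolute log2 change was 0.21, against 0.26 over all genes. In 14 members every shChd8 array lay below every control array, which is 29.2% beside 18.2% of all genes, and in 3 members every shChd8 array lay above (6.25% beside 14.6%). These are descriptions of the list, with no test of their own. With median scaling 21 of 48 members were below 0 and their median was 0.05, and with the median of fibroblast feeder markers as a covariate 24 were below 0 and the median was -0.0063. Of those feeder markers 28 of 30 measured had a log2 change above 0, with a median of 0.91.

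The intervals below measure the spread between these arrays in this setting, which may be technical. The standard error of a member's log2 change had a median of 0.16 and ran from 0.14 to 0.33. For 45 of the 48 members the 95% interval lay within 2-fold either way, and for 24 it lay within 1.5-fold either way. These intervals leave out the choice of setting. Orc2, for example, had an interval of -0.79 to 0.72 here and a log2 change of 0.94 with the feeder covariate. The smallest absolute log2 change of any called gene was 0.61 in this setting. Smaller ones were called in others, as for Pola2 at -0.46 with the deposited normalized values (adjusted p = 0.0357).

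**Figure D1:**
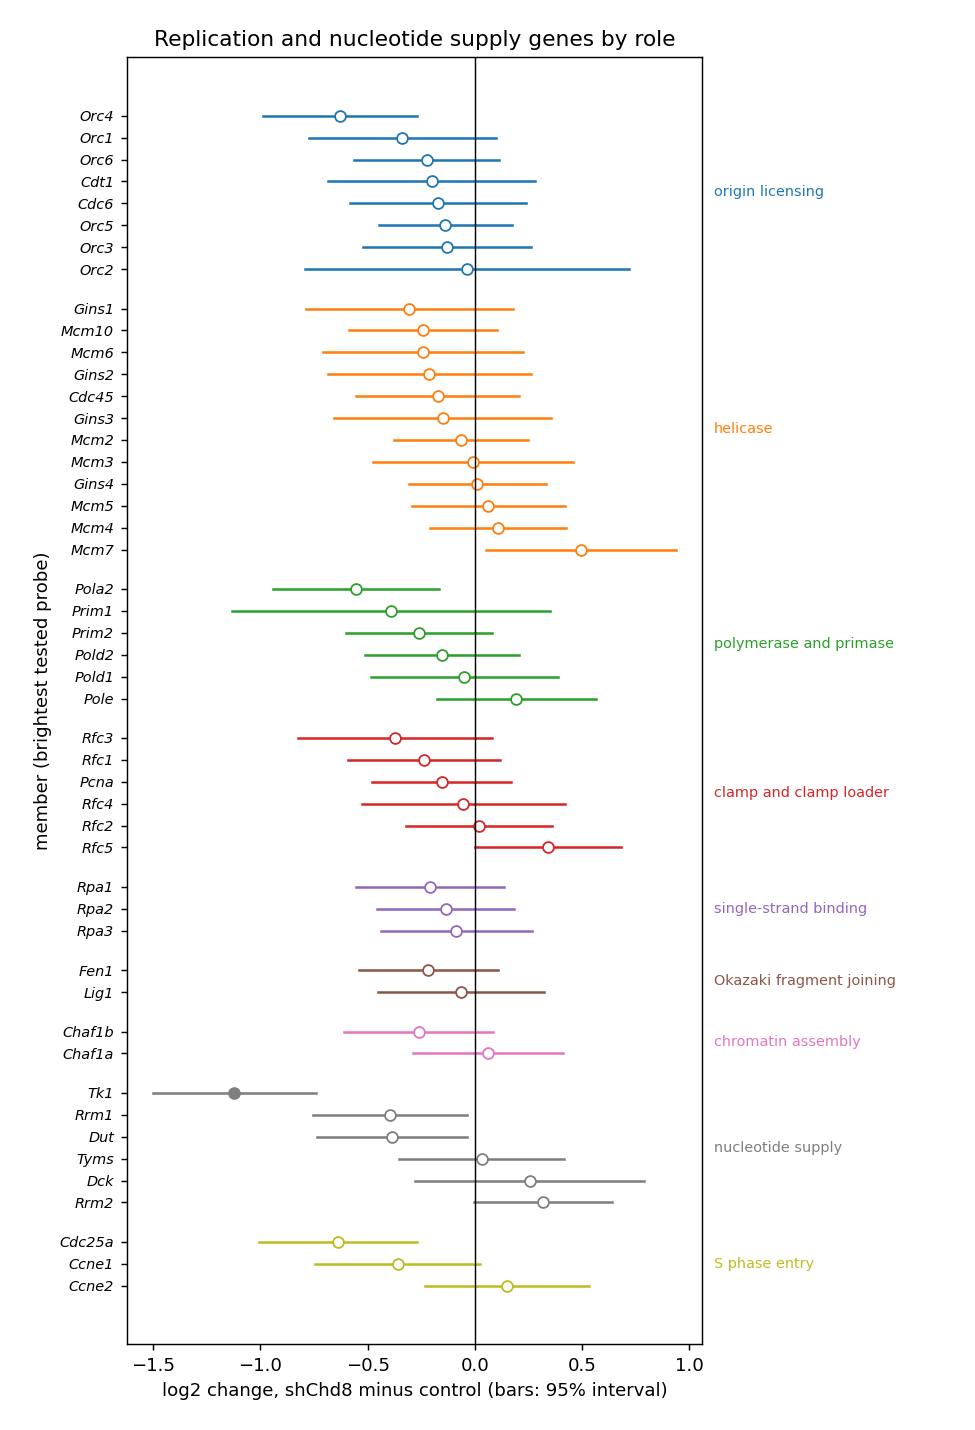
Log2 change of shChd8 minus control (x axis) for the 48 measured members, 1 row each, grouped by role; points are the fitted change on the brightest tested probe, bars the 95% interval from limma, and the filled point marks an adjusted p under 0.05. Tk1 at -1.12 is the filled point, and 36 of the 48 points lie left of 0.

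**Figure D2:**
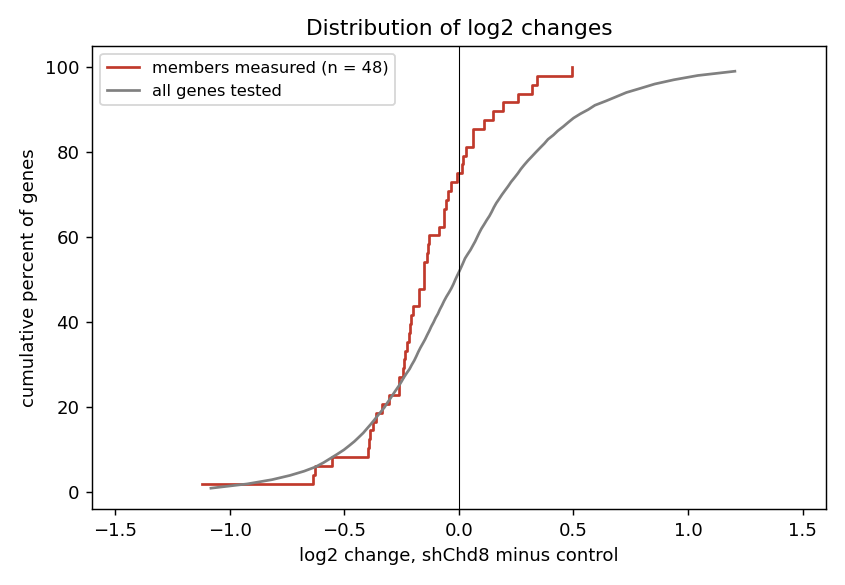
Cumulative percent of genes (y axis) by log2 change of shChd8 minus control (x axis) for the 48 measured members and for all 9711 genes tested. The members' curve crosses 0 at 75.0% and that of all genes at 51.8%.

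Nucleotide supply held the clearest difference. Tk1, which phosphorylates thymidine for re-use and is known to be made mainly in dividing cells, had log2 intensities of 8.63, 8.86 and 9.11 on the shChd8 arrays, against 9.98, 9.92 and 10.07 on the control arrays. Every shChd8 array lay below every control array by more than the range within either group. The means were 8.87 ± 0.24 in shChd8 and 9.99 ± 0.08 in control cells (SD, n = 3 each), a log2 change of -1.12 with a standard error of 0.17 (95% interval -1.50 to -0.74, limma adjusted p = 0.0213). Tk1 RNA thus stood at 46.0% of the control level, and the change ranked 80 from the lowest of 9711 genes. In such bulk samples, fewer cells of a type and less RNA per cell cannot be told apart.

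A second, dimmer Tk1 probe pointed the same way without a call, at 5.63, 5.89 and 6.53 on the shChd8 arrays against 6.48, 6.65 and 6.65 on the control arrays (log2 change -0.58, adjusted p = 0.162). The groups overlapped there through shChd8 replicate 3. The call on the bright probe was kept in 11 of 17 alternative settings, and the log2 change ran from -1.24 to -0.79 over the 17. The call was lost without shChd8 replicate 1 (limma adjusted p = 0.0962), shChd8 replicate 2 (0.0878), control replicate 1 (0.0746) or control replicate 3 (0.0807). In those fits the calls over all genes numbered 9, 26, 29 and 29, beside 418 with all arrays. The Tk1 call was also lost with an unmoderated test (0.0886) and with the fibroblast marker median as a covariate (log2 change -0.79, adjusted p = 0.386). The covariate fit called 0 of 9711 genes.

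The other 5 genes of nucleotide supply split by direction, and none of them was called by limma. Dut, the dUTPase that keeps uracil out of DNA, had 7.96, 8.19 and 7.89 on the shChd8 arrays against 8.28, 8.47 and 8.44 on the control arrays. Its log2 change was -0.39 (SE 0.15, unadjusted p = 0.0342, limma adjusted p = 0.161), with the groups apart. The large subunit of ribonucleotide reductase, Rrm1, had 9.44, 9.56 and 9.45 on the shChd8 arrays against 9.78, 9.75 and 10.11 on the control arrays for its bright probe, a log2 change of -0.39 (adjusted p = 0.162). A second Rrm1 probe read 0.02, so the probes of this gene disagree.

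Rrm2, the small subunit, whose level is known to follow S phase, went the other way. Its bright probe had 9.84, 9.95 and 10.04 on the shChd8 arrays and 9.65, 9.57 and 9.65 on the control arrays, so that each shChd8 array was above each control array, with a log2 change of 0.32 (SE 0.14, adjusted p = 0.199). Its other tested probes read 0.17 and 0.37. The dimmest, at 0.37, was detected on 3 of 3 shChd8 arrays and 0 of 3 control arrays. Its array means put the difference at 1.03-fold or more upward, a bound that carries no interval. That probe was tested only through the shChd8 group. Thymidylate synthase Tyms, which makes dTMP from dUMP, had a log2 change of 0.03, and the deoxycytidine kinase Dck had 0.26 with overlapping arrays. The pyrimidine salvage kinase Tk1 and the reductase subunit Rrm2 therefore sat at opposite ends of this small group.

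**Figure D3:**
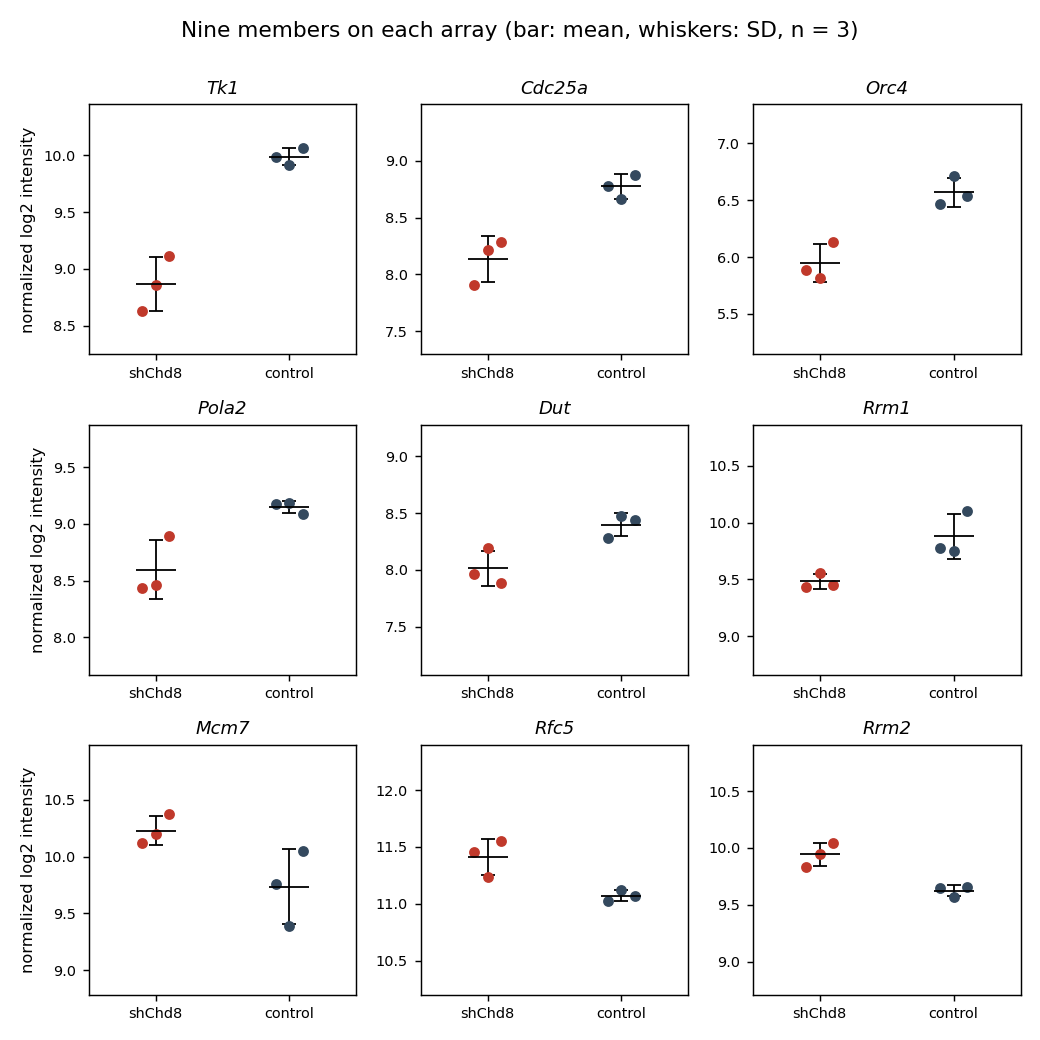
Normalized log2 intensity (y axis, the same span in every panel) of 9 members on the 3 shChd8 and the 3 control arrays; points are arrays, the horizontal bar the mean and the whiskers the SD. Tk1, Cdc25a, Orc4, Pola2, Dut and Rrm1 have every shChd8 array below every control array, and Mcm7, Rfc5 and Rrm2 have every shChd8 array above.

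To show what the promoters of the members look like, 3 windows of 300 bases are given from RefSeq (build GRCm38.p6), each from 250 bases before the listed transcript start to 50 after it, on the gene's strand. They are those of Tk1, the called member (chr11:117825965-117826264, minus strand), of Cdc25a, the cell cycle phosphatase with the next lowest log2 change (chr9:109875329-109875628, plus strand), and of Mcm7, the member with the highest log2 change (the first of its 2 listed windows, chr5:138171834-138172133, minus strand). Capitals mark E2F words, which were searched as TTTCCCGC, TTTGGCGC, TTTCGCGC and TTTGCCGC on both strands.
Tk1: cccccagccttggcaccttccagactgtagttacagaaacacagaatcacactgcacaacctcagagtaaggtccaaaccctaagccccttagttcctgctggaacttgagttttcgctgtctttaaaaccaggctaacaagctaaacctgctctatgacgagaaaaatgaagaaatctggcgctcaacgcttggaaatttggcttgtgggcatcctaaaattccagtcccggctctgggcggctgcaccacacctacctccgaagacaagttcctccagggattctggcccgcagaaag
Cdc25a: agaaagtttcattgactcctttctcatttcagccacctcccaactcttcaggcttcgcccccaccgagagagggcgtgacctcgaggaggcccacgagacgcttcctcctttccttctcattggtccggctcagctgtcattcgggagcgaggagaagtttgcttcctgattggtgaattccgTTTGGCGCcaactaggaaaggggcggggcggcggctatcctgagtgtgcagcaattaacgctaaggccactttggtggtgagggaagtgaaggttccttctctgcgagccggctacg
Mcm7: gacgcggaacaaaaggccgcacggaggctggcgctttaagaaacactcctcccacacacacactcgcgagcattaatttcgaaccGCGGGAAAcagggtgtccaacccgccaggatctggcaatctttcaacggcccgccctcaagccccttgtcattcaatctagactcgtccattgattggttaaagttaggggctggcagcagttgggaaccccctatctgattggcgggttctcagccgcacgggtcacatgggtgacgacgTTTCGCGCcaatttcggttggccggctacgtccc

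The Tk1 window held 0 E2F words, that of Cdc25a held 1, beginning 67 bases before the start, and that of Mcm7 held 2, of which the first begins 165 bases before the start. The listed Tk1 start lies inside the span of its gene record. Another Tk1 start may therefore exist, and a promoter there was not searched. The second Mcm7 word shares its last base with a CCAAT word. Of the 42 members with a window in the table, 15 had an E2F word in at least 1 window (35.7%), against 2.60% of all 27025 genes in the table and 3.29% of the 17492 protein-coding ones. CCAAT, searched on both strands, was in a window of 25 members (59.5%), against 41.1% of all genes. By role, an E2F word was found in 5 of 8 helicase genes and 4 of 8 licensing genes, and in 0 of 6 genes of nucleotide supply, in the listed windows only.

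Members with and without the word had much the same median, which was not tested. The median log2 change was -0.15 for the 13 measured members with an E2F word in a window and -0.17 for the 27 without. A match describes letters in this window only. Members without a listed window were Gmnn, Mcm4, Gins1, Gins2, Gins4, Prim2, Pole, Rfc2 and Ccne2.

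None of the 3 genes of S phase entry was called by limma (1 lower at an unadjusted p under 0.05). Cdc25a, which removes inhibitory phosphates from Cdk2, had log2 intensities of 7.91, 8.21 and 8.29 on the shChd8 arrays, against 8.78, 8.66 and 8.88 on the control arrays. Its arrays did not overlap between the groups, and the log2 change was -0.64 (SE 0.16, 64.3% of the control level), which missed the threshold at a limma adjusted p of 0.0616. Cdc25a passed it in 5 of 17 alternative settings, with adjusted p between 0.0201 and 0.0427 in those. They include no background correction and the deposited normalized values, which gave nearly the same result (limma adjusted p = 0.0201 in each). Cyclin E1, Ccne1, which activates Cdk2, had 8.74, 9.02 and 9.03 on the shChd8 arrays against 9.26, 9.50 and 9.11 on the control arrays, a log2 change of -0.36 (SE 0.17, adjusted p = 0.221), again without overlap. Cyclin E2, Ccne2, had 6.88, 6.60 and 6.67 on the shChd8 arrays against 6.39, 6.51 and 6.80 on the control arrays, which overlap, and a log2 change of 0.15 (SE 0.17).

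All 8 measured licensing genes had a log2 change below 0, beside 51.8% of all genes, and 0 were called by limma. Their median was -0.19, beside -0.02 over all genes. With median scaling it was -0.0095, beside 0.18, and Orc2, Orc3, Orc5 and Cdc6 were above 0. At an unadjusted p under 0.05, 1 was lower (12.5%, beside 14.0% of all genes). In 37.5% of them every shChd8 array lay below every control array, beside 18.2% of all genes. Orc4, a subunit of the origin recognition complex, had 5.88, 5.81 and 6.13 on the shChd8 arrays, against 6.46, 6.71 and 6.54 on the control arrays. This was the lowest of the complex, at -0.63 (SE 0.16, limma adjusted p = 0.061), with the groups apart. It passed the threshold in 1 of 17 alternatives, the stricter filter (adjusted p = 0.0422), and its log2 change shrank to -0.29 where the background was left uncorrected, and to the same value on the deposited normalized scale. A dimmer Orc4 probe, detected on 1 shChd8 and 2 control arrays, read -0.25 with overlap.

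The remaining subunits of the origin recognition complex had smaller log2 changes. Orc1, the subunit that is known to cycle in mammalian cells, had 7.59, 7.81 and 8.24 on the shChd8 arrays against 8.28, 8.27 and 8.12 on the control arrays (log2 change -0.34, adjusted p = 0.303), where shChd8 replicate 3 fell among the controls. Orc6, Orc3, Orc5 and Orc2 had -0.22, -0.13, -0.14 and -0.04, and the Orc5 and Orc6 arrays did not overlap although their changes were small. The loading factors Cdc6 and Cdt1, which bring the Mcm ring to the origin, had -0.17 and -0.20 with overlap. Geminin, Gmnn, which inhibits Cdt1, was detected on 0 shChd8 arrays and 2 control arrays, too few to be tested.

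The 12 helicase genes had a median log2 change of -0.11, beside -0.02 over all genes (0.11 beside 0.18 with median scaling). Of them 8 were below 0 and 4 above (66.7% below, beside 51.8% of all genes). By limma 0 were called, with 1 higher at an unadjusted p under 0.05 (8.33%, beside 13.4%). Among the 6 subunits of the Mcm ring the median was 0.03, with Mcm2 at -0.06, Mcm3 at -0.01, Mcm4 at 0.11, Mcm5 at 0.06 and Mcm6 at -0.24. Mcm4 had 13.28, 13.25 and 13.36 on the shChd8 arrays against 13.15, 13.14 and 13.28 on the control arrays, which overlap.

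Mcm7 stood apart from the rest of its ring in value, though not in a tested way. On its bright probe it had 10.12, 10.20 and 10.37 on the shChd8 arrays, against 9.76, 9.39 and 10.05 on the control arrays. Each shChd8 array was higher, and the log2 change was 0.49 (SE 0.19, 140.9% of the control level, unadjusted p = 0.0327, limma adjusted p = 0.157). The other Mcm7 probe averaged 9.13 ± 0.14 on the shChd8 arrays and 8.81 ± 0.23 on the control arrays (SD, n = 3 each), also without overlap, a log2 change of 0.32. Both probes thus read higher in shChd8 cells, and neither passed the test.

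None of the factors that activate the ring was called on any probe. Mcm10, which is needed to start unwinding, had 11.93, 11.89 and 12.19 on the shChd8 arrays against 12.32, 12.23 and 12.19 on the control arrays (log2 change -0.24, adjusted p = 0.349), and its second probe read -0.22. Another, faint Mcm10 probe was detected on 0 of 3 shChd8 and 3 of 3 control arrays, so it was tested only through the control group. Its array means put it at least 1.27-fold lower in shChd8 cells, a bound that carries no interval, and it was not called. Cdc45 had -0.17, and the GINS subunits Gins1, Gins2, Gins3 and Gins4 had -0.30, -0.21, -0.15 and 0.01, all with overlapping arrays.

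Of 6 measured polymerase and primase genes 5 had a log2 change below 0 (83.3%, beside 51.8% of all genes). The median of the 6 was -0.21, beside -0.02 over all genes (-0.00050 beside 0.18 with median scaling). By limma 0 were called, and 1 was lower at an unadjusted p under 0.05 (16.7%, beside 14.0%). Pola2, the regulatory subunit of polymerase alpha, had 8.44, 8.46 and 8.89 on the shChd8 arrays, against 9.18, 9.19 and 9.09 on the control arrays. The groups were apart, and the log2 change was -0.55 (SE 0.17, 68.1% of the control level, limma adjusted p = 0.0926). It passed the threshold in 4 of 17 alternatives, with adjusted p between 0.0357 and 0.0415 in those. No background correction and the deposited normalized values, which are among them, gave nearly the same result (limma adjusted p = 0.0357 in each). The catalytic subunit Pola1 was detected on no array, so Pola2 is the measured one of its 2 listed subunits.

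None of the primase and replicative polymerase genes was called. The large primase subunit Prim2 had 8.67, 8.80 and 8.92 on the shChd8 arrays against 8.93, 9.06 and 9.17 on the control arrays, barely apart, with a log2 change of -0.26 (adjusted p = 0.312), and its second probe read -0.31. The catalytic primase Prim1 was faint, detected on 1 shChd8 and 2 control arrays, and its value of -0.39 (SE 0.32) rests on control replicate 1 at 6.22, without which it was 0.00066. Pold1 and Pold2, subunits of polymerase delta, had -0.05 and -0.15. Pole, the catalytic subunit of polymerase epsilon, had 0.19, and its partner Pole2 was detected on no array.

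The clamp and its loader gave both signs. Pcna, the sliding clamp, had 8.16, 8.38 and 8.33 on the shChd8 arrays against 8.43, 8.45 and 8.44 on the control arrays. The groups did not overlap, yet the log2 change was only -0.15 (SE 0.14, adjusted p = 0.533). Rfc5, a small subunit of the clamp loader, had 11.45, 11.24 and 11.55 on the shChd8 arrays against 11.02, 11.12 and 11.07 on the control arrays, higher on each shChd8 array, with a log2 change of 0.34 (SE 0.15, limma adjusted p = 0.195). Rfc3, another small subunit, had 6.16, 6.46 and 6.66 on the shChd8 arrays against 6.55, 6.78 and 7.08 on the control arrays and a log2 change of -0.37 (adjusted p = 0.275), with overlap. Rfc1, the large subunit, and Rfc2 and Rfc4 had -0.24, 0.02 and -0.05.

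Genes for coating, joining and packaging the new strands had no call. The subunits of replication protein A, which coats single-stranded DNA, had log2 changes of -0.21 for Rpa1, -0.14 for Rpa2 and -0.09 for Rpa3. Rpa1 had 12.92, 12.91 and 13.13 on the shChd8 arrays against 13.26, 13.04 and 13.29 on the control arrays, and Rpa2 had 9.63, 9.55 and 9.75 on the shChd8 arrays against 9.75, 9.80 and 9.77 on the control arrays. Rpa3 had 10.48, 10.76 and 10.60 on the shChd8 arrays against 10.71, 10.56 and 10.82 on the control arrays, so only Rpa2 of the 3 was without overlap, and by a small margin. Fen1, the flap nuclease of Okazaki fragments, had 11.28, 11.28 and 11.11 on the shChd8 arrays against 11.51, 11.41 and 11.40 on the control arrays, apart by a small margin (log2 change -0.22, adjusted p = 0.372). DNA ligase Lig1, which seals the nicks, had 11.11, 10.94 and 11.44 on the shChd8 arrays against 11.21, 11.30 and 11.17 on the control arrays, with overlap and a log2 change of -0.06.

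Of the CAF-1 subunits that deposit histones at the fork, Chaf1b had 10.14, 10.29 and 10.40 on the shChd8 arrays against 10.47, 10.68 and 10.45 on the control arrays, without overlap (log2 change -0.26, limma adjusted p = 0.316). Chaf1a lay between 9.93 and 10.11 on the shChd8 arrays and between 9.76 and 10.09 on the control arrays, with overlap (log2 change 0.06). The subunits of this complex thus gave both signs, and neither was called.

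Where a gene had several probes they mostly gave the same sign. Of 18 members with at least 2 tested probes, 5 had probes of opposite sign, namely Mcm4, Mcm6, Rfc2, Lig1 and Rrm1. Mcm4 read 0.11 on the bright probe and -0.25 and 0.45 on faint ones, and Mcm6 read -0.24 and -0.13 on bright probes and 0.19 and 0.14 on faint ones. Rfc2 read 0.02, -0.02, 0.04 and -0.17, and Lig1 read -0.06, -0.28 and 0.06. None of these probes was called, and the bright and the faint probes of a gene were not compared in level.

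The arrays of the shChd8 group did not behave alike for these genes. The median deviation of the 48 members from their mean over the 6 arrays was -0.18, -0.13 and 0.05 on shChd8 replicates 1, 2 and 3, against 0.05, 0.07 and 0.08 on the control arrays. shChd8 replicate 3 thus lay next to the controls (0.0474 against a lowest control value of 0.0499). Without it the members' median log2 change was -0.23, against -0.15 with all arrays, and 40 of 48 members were below 0.

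Most markers of the fibroblast feeder layer read higher in the shChd8 group. Of 35 markers 30 were measured, 28 had a log2 change above 0 and 2 rose at a limma adjusted p under 0.05, Fbln2 and Tagln, a matrix and a contractile gene, by 1.13 and 1.06 on the log2 scale, with a median over the 30 of 0.91. Col3a1, Col5a2, Postn, Fbn1 and Cdh11 had no probe that could be tested. The brightest were Bgn, Ccn2 and Acta2, with log2 changes of 1.22, 0.70 and 1.16 (adjusted p = 0.0982, 0.162 and 0.06). The summed level of the measured markers ran from 33441 to 65281 on the shChd8 arrays and from 16996 to 29167 on the control arrays, without overlap. In bulk samples, more fibroblast RNA and more RNA of these genes in the stem cells cannot be told apart.

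Array by array, the order of the feeder markers was the reverse of that of the members. The feeder median deviation was 0.93, 0.52 and -0.03 on the shChd8 arrays and -0.18, -0.27 and -0.91 on the control arrays. The array with the highest feeder marker median thus had the lowest median of the members. On shChd8 replicate 3 and the control arrays the members' medians lay close together, between 0.0474 and 0.0833. The order among those arrays therefore rests on small differences, and a link between the lists was not tested. With this median as a covariate the members' median log2 change was -0.01, 24 of 48 were below 0, and 0 members were called by limma (4 at an unadjusted p under 0.05). The covariate overlaps with the groups, and 0 of 9711 genes were called in that fit, beside 962 at an unadjusted p under 0.05. Stem cell markers also differed by array, at -0.17, -0.06 and 0.20 on the shChd8 arrays against 0.02, 0.0013 and 0.10 on the control arrays, with overlap and 0 called by limma (1 at an unadjusted p under 0.05).

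Other lineages were scarcely measured. Of the neural markers 2 of 9 could be tested, Map2 and Nes, of the mesoderm markers 2 of 8, Eomes and Tbx6, and of the endoderm markers 3 of 8, Dab2, Gata6 and Sox7. Their defining factors Sox1, Pax6, T, Mixl1, Sox17 and Foxa2 had no testable probe, and 0 of the measured ones were called by limma (1 mesoderm marker at an unadjusted p under 0.05). Tbx6 was detected on 3 shChd8 and 0 control arrays, so it was tested only through the group in which it was detected. Summed levels overlapped for the neural markers (208.2 to 353.6 on the shChd8 arrays, 198.4 to 287.5 on the control arrays) and for the endoderm markers (322.4 to 467.0 on the shChd8 arrays, 298.1 to 333.3 on the control arrays). They did not overlap for the mesoderm markers (80.6 to 89.5 on the shChd8 arrays, 65.3 to 68.5 on the control arrays). That sum rests on Eomes and Tbx6 alone.

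**Figure D4:**
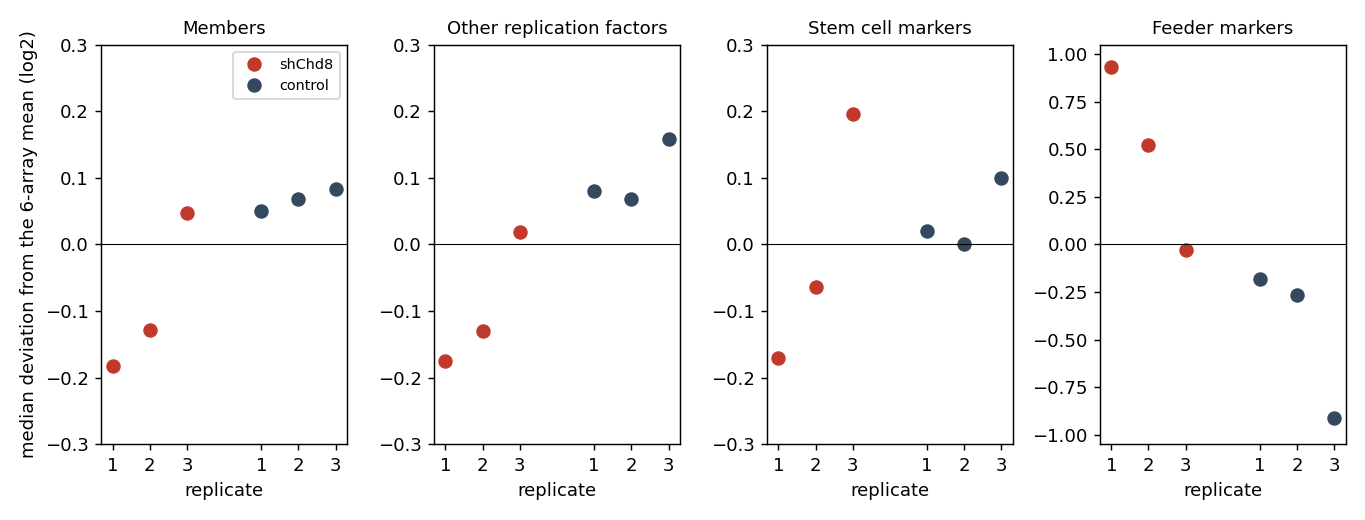
Median deviation from the mean over the 6 arrays (y axis, log2) of the members, of other replication factors, of stem cell markers and of fibroblast feeder markers, by array (x axis, replicate within shChd8 and control). The first 3 panels span 0.3 either way and the feeder panel about 1; shChd8 replicate 1 is lowest for the members at -0.18 and highest for the feeder markers at 0.93.

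Of 39 further replication factors 34 were measured and 0 were called by limma, beside 2.61% of all genes lower and 1.70% higher. At an unadjusted p under 0.05, 9 were lower and 2 higher (26.5% and 5.88%, beside 14.0% and 13.4% of all genes). Every shChd8 array lay below every control array in 35.3% of them, beside 18.2% of all genes, and above in 5.88%, beside 14.6%. The median was -0.18, beside -0.02 over all genes. The list as a whole was not tested. Cdc7, the kinase that fires origins, had 8.97, 9.22 and 9.27 on the shChd8 arrays against 10.12, 9.76 and 9.65 on the control arrays, a log2 change of -0.69 (SE 0.18, limma adjusted p = 0.0631). Wdhd1, a fork adaptor that links polymerase alpha to the helicase, had -0.59 (adjusted p = 0.0618) and the helicase Recql4 had -0.61 (adjusted p = 0.0667), each with all shChd8 arrays below all control arrays. The feeder marker median was higher on the shChd8 arrays, and a fit that held it as a covariate put the median of these factors at 0.0035. A link between them was not tested.

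Beyond the members, 4 genes of nucleotide synthesis fell. Of 33 measured of 36 listed, 4 fell and 0 rose by limma (beside 2.61% and 1.70% of all genes), 11 were lower and 0 higher at an unadjusted p under 0.05 (33.3% lower beside 14.0%), 23 were below 0, and the median was -0.21. None of the 4 was called by limma when any array but control replicate 2 was left out, or in the unmoderated test. Shmt1, the cytosolic enzyme that moves a carbon from serine to folate, had 9.71, 9.97 and 9.75 on the shChd8 arrays, against 10.78, 10.81 and 10.73 on the control arrays (log2 change -0.96, SE 0.15, adjusted p = 0.0219). A second Shmt1 probe read -0.14 without a call. Ppat, the first committed enzyme of purine synthesis, had 9.31, 9.56 and 9.51 on the shChd8 arrays against 10.31, 10.24 and 10.28 on the control arrays (log2 change -0.82, SE 0.14, adjusted p = 0.0313).

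Guanylate kinase Guk1 fell on both of its probes, by 0.79 and 0.63 on the log2 scale (adjusted p = 0.035 and 0.0485). Umps, which completes the synthesis of UMP, fell by 0.68 on its brightest probe (SE 0.15, limma adjusted p = 0.0459), while its other probes read -0.56 and -0.23 without a call. Mthfd2, a mitochondrial folate enzyme, had -0.76 on its bright probe (adjusted p = 0.051) and was called on another (log2 change -1.04, adjusted p = 0.038). On each called probe every shChd8 array lay below every control array. Fibroblast feeder signal was higher on the shChd8 arrays too. The fit that held it as a covariate put the list median at -0.14, beside -0.0063 over all genes. By limma that fit called 0 of 9711 genes, so its 0 calls here are not particular to this list. A link between feeder signal and these genes was not tested.

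Genes listed as S phase kinases, inhibitors and checkpoint factors had log2 changes of both signs, 11 below 0 and 13 above. The highest was 1.08, which was not called. Of 24 measured of 30 listed, 2 fell and 0 rose by limma (beside 2.61% and 1.70% of all genes), 3 were lower and 6 higher at an unadjusted p under 0.05 (12.5% and 25.0%, beside 14.0% and 13.4%), and the median was 0.03. The count of calls was 0 with the feeder covariate, in a fit that called 0 of 9711 genes. It was also 0 without shChd8 replicate 1, shChd8 replicate 2, control replicate 1 or control replicate 3, and 5 without control replicate 2. Hus1, a subunit of the checkpoint clamp that senses stalled forks, had 9.49, 9.59 and 9.54 on the shChd8 arrays, against 10.57, 10.49 and 10.43 on the control arrays. It fell by 0.96 on the log2 scale (SE 0.14, adjusted p = 0.0198) and was called on each of its 3 tested probes. Cdc25c, a phosphatase that promotes mitosis, had 6.83, 6.78 and 7.06 on the shChd8 arrays against 7.79, 7.79 and 8.02 on the control arrays and fell by 0.98 (SE 0.15, adjusted p = 0.0248), while its other probe read -0.31 (adjusted p = 0.251).

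The small downward lean of the members depended on the setting. Median scaling put the median of all genes at 0.18 and that of the members at 0.05, with 21 of 48 members below 0 and 993 genes called higher and 157 lower (165 and 253 here), so the sign of the lean flipped while the members' median stayed below that of all genes. With the feeder covariate both medians were at -0.0063. In the 15 settings other than median scaling and the feeder covariate, the members' median ran from -0.23 to -0.11. Calls among the members numbered 3, in place of 1, without background correction, with normexp without controls, with the deposited normalized values, with the stricter filter and with a trended and robust variance model, all lower. Calls over all genes rose in these settings too, to 1176, 1100, 1179, 690 and 1167 in the same order, counting both directions. The largest number of genes called over the whole table was 1179, with the deposited normalized values, beside 418 here.

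**Figure D5:**
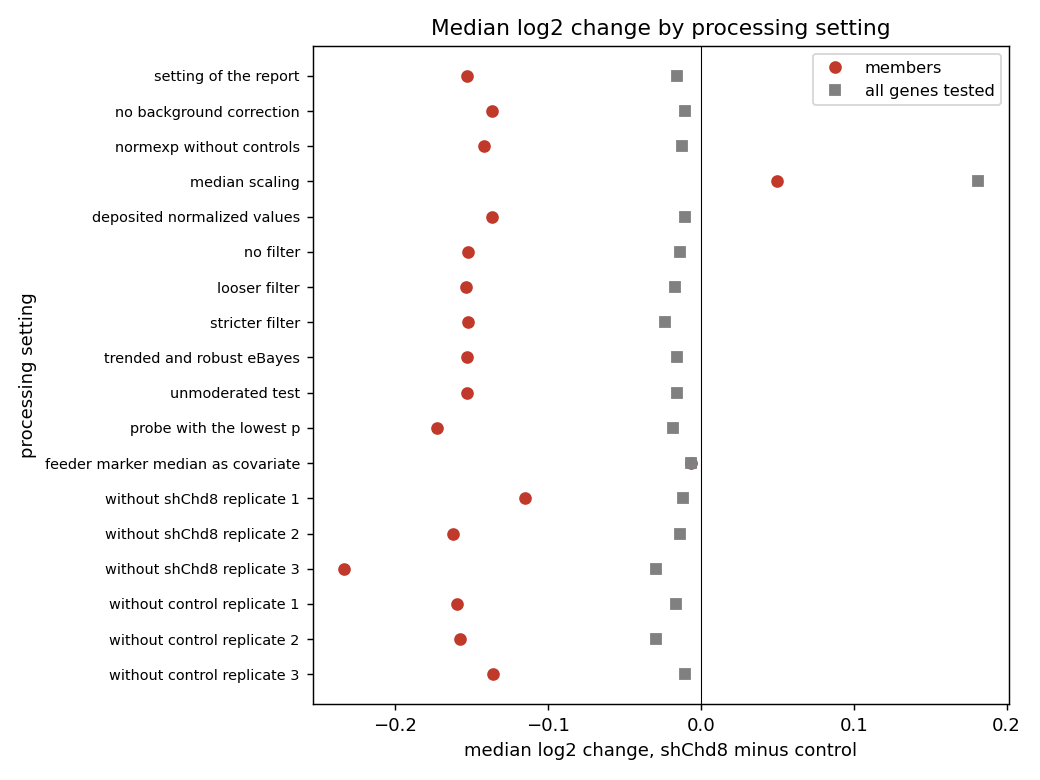
Median log2 change of shChd8 minus control (x axis) over the measured members (circles) and over all genes tested (squares) under the setting of the report and 17 alternatives (y axis). The members' median lies left of that of all genes in each setting except the feeder covariate, where both are at -0.0063.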

How the data were processed

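RNA of 6 samples was measured on Illumina bead arrays. The deposited non-normalized table gives each probe's intensity on an array together with a detection p-value, as its file headers say. The submitters' processing notes list GenomeStudio without a version. The deposited normalized intensity kept each array's rank order (Spearman rho 1 to the digits computed), with array medians between 112.1 and 112.2.

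The fit started from the non-normalized intensity in limma 3.58.1 (R 4.3.3): neqc, which corrects the background from detection p-values, adds an offset of 16 and quantile normalizes, then log2. Summed marker levels are sums of these values on the linear scale. Probes with a detection p under 0.01 on at least 3 of 6 arrays were tested (16732) with lmFit and eBayes, two-sided, Benjamini-Hochberg adjusted over all of them. A gene stands by its brightest tested probe, that with the highest mean over the 6 arrays. Where no array of a group detected a probe, its level there is a bound, taken from the lowest detected signal per array. Such a bound compares means and carries no interval. The fit was tested on simulated data. The number of arrays limits the precision.

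Of the 45281 probes, 34885 had 1 symbol, 18 several and 10378 none; 34807 of those with 1 were matched to RefSeq (GRCm38.p6) by gene ID, and 0 of these symbols differed from RefSeq's. Members and lists were chosen with earlier results of these data known. Values per array are given for called members and for the 2 of each role with the lowest p (all in roles of up to 3), and some others were added after their values were seen; other members are given by their log2 change. Probe and protein sequences were not used here. Promoter windows and word matches used Python 3.11.15. The 17 alternatives changed the background, normalization, filter, variance model, probe rule or covariate, or left out an array.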

Additional observations from a re-analysis of the deposited data

How the results depend on the processing

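No paired analysis was possible because the labels give the groups no shared replicate numbers; those used here follow accession order. The direction of Tk1, Cdc25a, Orc4 and Pola2 held in all 17 alternatives. Groups of 3 arrays allow no exact permutation p under 0.1.

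Over all genes 418 were called; the count was 1176 without background correction, 1100 with normexp without controls, 1150 with median scaling, 1179 with the deposited normalized values, 216 without a filter, 690 with the stricter filter, 1167 with the trended and robust variance model, 13 with the unmoderated test, 0 with the feeder covariate by limma (962 at an unadjusted p under 0.05), and 9 to 615 when 1 array was left out, with 9 without shChd8 replicate 1, 26 without shChd8 replicate 2, 143 without shChd8 replicate 3, 29 without control replicate 1, 615 without control replicate 2 and 29 without control replicate 3. The cause was not tested. Members called numbered 1, against 3 without background correction, with normexp without controls, with the deposited values, with the stricter filter and with the trended model, 0 with the unmoderated test and the feeder covariate, and 0 to 1 when an array was left out.

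In the same order of settings (no background correction, normexp without controls, median scaling, deposited values, stricter filter, trended model), the further replication factors called numbered 7, 5, 1, 7, 3 and 6 against 0, and 0 to 1 with an array left out. For nucleotide synthesis the counts were 10, 7, 2, 10, 6 and 9 against 4, with 0 in the unmoderated test and under the feeder covariate, and 0 to 4 with an array left out. For S phase control they were 7, 7, 8, 7, 4 and 6 against 2, with 1 in the unmoderated test, 0 under the feeder covariate, and 0 to 5 with an array left out.

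The members' median of -0.15 became 0.050 with median scaling and -0.0063 with the feeder covariate, and ran from -0.23 to -0.11 with an array left out. Members below 0 numbered 21 with median scaling, against 36, and 32 to 40 with an array left out. The feeder marker median of 0.91 was -0.040 with itself as covariate, by construction, and 0.63 to 1.16 with an array left out. The Chd8 log2 change was -1.39 with an adjusted p of 0.061 in the unmoderated test, -1.55 (adjusted p = 0.24) with the covariate, and -1.46 to -1.29 with an array left out, where the call was lost without shChd8 replicate 1 (adjusted p = 0.0534).

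Of 815 fits of single members under other settings 56 changed sign, in 25 members, none of them called. With median scaling, the log2 change was above 0 for Orc2 (0.12), Orc3 (0.092), Orc5 (0.040), Cdc6 (0.047), Mcm2 (0.11), Mcm3 (0.19), Cdc45 (0.053), Gins3 (0.10), Pold1 (0.12), Pold2 (0.021), Pcna (0.081), Rfc4 (0.17), Rpa2 (0.088), Rpa3 (0.10) and Lig1 (0.10). The feeder covariate turned Orc2 (0.94), Cdc6 (0.12), Mcm3 (0.38), Mcm6 (0.30), Cdc45 (0.17), Gins2 (0.30), Pold1 (0.15), Pold2 (0.038), Rfc1 (0.0067), Rfc2 (-0.045), Rfc3 (0.15), Rfc4 (0.15), Rpa3 (0.064) and Lig1 (0.10). On the probe with the lowest p, Mcm6 read 0.19 and Rfc2 -0.17. With an array left out, values ran from -0.28 to 0.33 for Orc2, -0.28 to 0.00030 for Cdc6, -0.023 to 0.068 for Gins4, -0.21 to 0.096 for Pold1, -0.031 to 0.090 for Rfc2, -0.26 to 0.093 for Rfc4, -0.073 to 0.14 for Tyms, -0.15 to 0.17 for Mcm3, -0.20 to 0.049 for Lig1, -0.029 to 0.17 for Mcm5, -0.31 to 0.035 for Gins3, -0.74 to 0.00066 for Prim1 and -0.030 to 0.13 for Chaf1a.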
